A study of Mus musculus with 5 samples.

Results

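Protocadherins are the largest family of cadherins, cell surface proteins that bind their own kind on a neighbouring cell. The clustered protocadherins are encoded by long arrays of variable exons, each with a promoter of its own; a neuron uses a few of these promoters, and the resulting set of proteins works as an identity mark by which its branches recognise each other. In the Pcdha and Pcdhg arrays each variable exon is spliced to shared constant exons, whereas each Pcdhb gene is a separate coding exon. The C-type genes at the end of the Pcdha and Pcdhg arrays are known to be used more evenly between cells, and distal enhancers and the protein CTCF with cohesin bring enhancer and chosen promoter together. The single protocadherin genes lie apart from these arrays and act in cell sorting, axon growth and synapse formation. Their known sites of expression include the developing brain.

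The genes described here are the protein-coding RefSeq genes of mouse build GRCm38.p6 (the assembly of mm10) whose symbol begins with Pcdh. They numbered 69 of 21896 protein-coding genes: 57 clustered genes (14 Pcdha, 22 Pcdhb and 21 Pcdhg, among them 5 C-type genes) and 12 single genes. Pcdhgb8 is annotated as a transcribed pseudogene and was not a member, nor were Gm37013, Gm38666 and Gm38667, gene models that start at Pcdha exons and run to the end of the Pcdhg cluster. Choosing by symbol used no measured value.

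Chromatin immunoprecipitation with sequencing had been done in cultured mouse neural stem cells (NSC) and brain tumour stem cells (BTSC). In either culture, cells transduced with a retrovirus for TLX carrying the 3xTY1 tag were precipitated with a TY1 antibody; TLX is the orphan nuclear receptor Nr2e1, which maintains neural stem cells. Untransduced cells of both cultures were profiled for H3K27ac, the acetylation of histone H3 that marks active promoters and enhancers. Each of these 4 groups holds 1 library, so no value below has a replicate error and no test between cultures was possible; the control sample, from cells with the empty vector MSCV-neo and without antibody, was not analysed here. Tagged TLX was added to the cells by a virus, and nothing in the labels says how the tumour cells arose or from how many clones the cultures grew. The lists called BTSC here bear another abbreviation in their own names and were assigned by the sample titles and the recorded link from list to sample; every BTSC value rests on that. Peak lists had 31266 (NSC) and 31597 (BTSC) H3K27ac peaks and 7458 (NSC) and 1436 (BTSC) TLX peaks. The depth (read numbers: not given in the sources used here) is unknown, and a missing peak means only that none was called. Of 10 neural stem cell markers, among them Sox2, Nes and Vim, 8 had H3K27ac within 1 kb of a start in each culture, while Pax6 and Msi1 did not. The 4 microglial, 4 endothelial and 4 other-tissue markers had none, 4 of 7 neuronal markers had it in NSC and 2 in BTSC, 2 and 3 of 4 astrocyte markers, and 1 and 2 of 5 oligodendrocyte markers.

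The clustered genes occupied 911.6 kb of chromosome 18, from Pcdha1 at 36930285 to the shared end of the Pcdhg genes at 37841873, and H3K27ac lay there in short isolated peaks, most of them at gene starts, and in a single long domain over the 3 Pcdhgc genes. Because Pcdha genes share their last exons, as do Pcdhg genes, a peak near the shared end falls in the body of every member; the genes were therefore told apart by the start of their variable exon, with a peak counted within 1 kb of it. H3K27ac lay at the start of 17 of the 57 clustered genes in NSC and of 14 in BTSC. Over 17491 protein-coding genes with a start in the RefSeq promoter table, the shares were 53.4% in NSC and 52.9% in BTSC. The 40 clustered starts without a peak in NSC lay at least 2900 bp from the nearest one, and the 43 without a peak in BTSC at least 3146 bp.

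**Figure D1:**
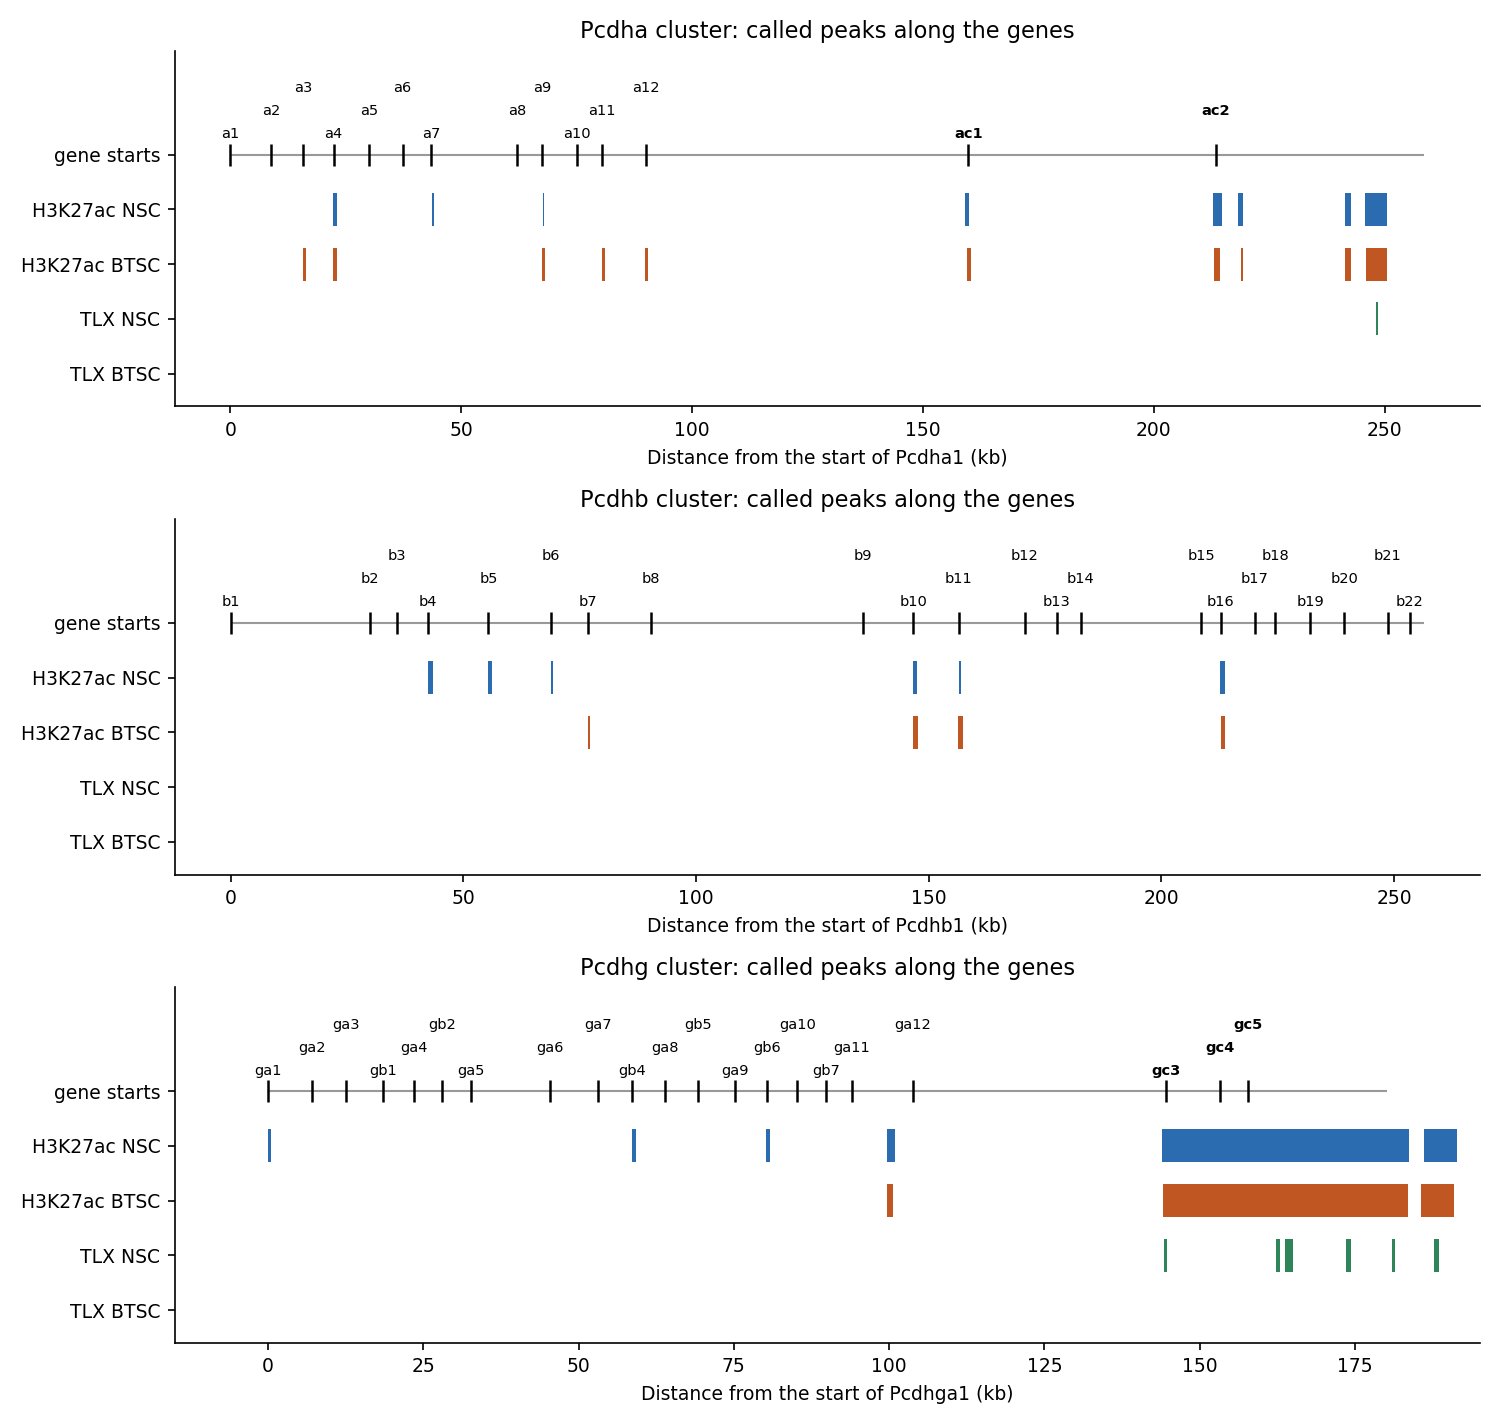
Called peaks along the Pcdha, Pcdhb and Pcdhg clusters. The x axis is the distance in kb from the start of the leading gene of each cluster, ticks are gene starts (names without Pcdh, C-type genes in bold), and bars are the called H3K27ac and TLX peaks of each list at their true width. Short H3K27ac peaks stand at some gene starts and differ between cultures, a domain of nearly 40 kb covers the end of Pcdhg in both, and no TLX peak of the BTSC list falls in the plotted range.

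The 5 C-type genes were acetylated at the start in both cultures. Pcdhac2 had peaks of 1789 bp (fold enrichment 8.86) in NSC and 1427 bp (fold 8.20) in BTSC, both over the start at 37143678. Pcdhac1, at 37090136, had peaks of 705 bp (fold 2.43) and 886 bp (fold 2.99): 6.07% of NSC peaks and 23.5% of BTSC peaks had a lower −log10 q, that is, were weaker. Pcdhgc3, Pcdhgc4 and Pcdhgc5 shared a single domain, described below. Folds here and below are the authors' own linear enrichment of a peak, set side by side for each gene; a difference between the lists in fold or width has no replicate error and is no measured change.

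Of the 52 other clustered genes, 12 had H3K27ac at the start in NSC and 9 in BTSC, and only 5 of them were the same genes. These 5 are 41.7% of the NSC set and 55.6% of the BTSC set: Pcdha4, Pcdha9, Pcdhb10, Pcdhb11 and Pcdhb16. Pcdha7, Pcdhb4, Pcdhb5, Pcdhb6, Pcdhga1, Pcdhgb4 and Pcdhgb6 were acetylated in the NSC list alone. Pcdha3, Pcdha11, Pcdha12 and Pcdhb7 were acetylated in the BTSC list alone, and 36 starts in neither. Thus 11 of 16 acetylated starts were in 1 list only (68.8%, exact Clopper-Pearson 95% interval 41.3 to 89.0, which covers counting error only and treats neighbouring genes as independent). Over all protein-coding genes with H3K27ac at a start in either list, 7.11% had it in exactly 1. Of the 17491 genes with a start in the RefSeq promoter table, 51.2% had it in both lists. The NSC list alone had it for 2.21% of these genes and the BTSC list alone for 1.72%.

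The strength of the peaks moved with these counts, and a split by strength, chosen after the values were seen, is given beside them. Over all genes, H3K27ac at the start was in 1 list only for 65.5% of genes whose strongest start peak had a −log10 q under 5, 18.4% of those from 5 to 15, and 1.35% of those of 15 or more. The 9645 genes with H3K27ac at a start in either list split into 565, 1137 and 7943 genes, in this order. Most genes were thus in the strongest class, whereas of the 16 clustered genes, 14 fell into the classes under 15. All 5 of the weakest class (Pcdha7, Pcdhb6, Pcdhb7, Pcdhga1 and Pcdhgb4) were in 1 list only, as were 6 of the 9 in the middle class and 0 of 2 in the strongest, Pcdha4 and Pcdhb11. Whether the clustered genes differ from other genes of like strength was not tested. The 6 genes of the middle class, Pcdha3, Pcdha11, Pcdha12, Pcdhb4, Pcdhb5 and Pcdhgb6, had a −log10 q of at least 5 in their list and no peak at all in the other.

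Along Pcdha, 3 of the 12 variable genes had an acetylated start in NSC and 5 in BTSC. Pcdha4, starting at 36952689, had the strongest start peak outside the C-type genes in either list, 815 bp wide in NSC (fold 8.07, −log10 q 30.3) and 876 bp in BTSC (fold 10.3, −log10 q 45.5). The peak began 135 bp before the start in NSC and 208 bp before it in BTSC and ran 679 and 667 bp past it. Pcdha9 had a peak of 412 bp (fold 2.85, −log10 q 2.70) in NSC and of 588 bp (fold 4.51, −log10 q 8.47) in BTSC. In the NSC list, Pcdha7 had a further weak peak (443 bp, fold 2.87, −log10 q 2.80). The BTSC list instead held Pcdha3 (665 bp, fold 5.77, −log10 q 14.3), Pcdha11 (710 bp, fold 5.85, −log10 q 14.8) and Pcdha12 (584 bp, fold 3.52, −log10 q 5.24). Pcdha1, which opens the cluster, had no start peak in either list.

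Outside gene starts, 3 H3K27ac peaks of Pcdha recurred in both cultures between Pcdhac2 and the shared end. The widest ran from 37176039 to 37180700 in NSC (4662 bp, fold 9.68) and from 37176269 to 37180715 in BTSC (4447 bp, fold 10.1), with its midpoint 34692 bp past the start of Pcdhac2 in NSC. A second lay at 37171796 to 37173054 (1259 bp, fold 4.97, in NSC; 1355 bp, fold 4.56, in BTSC). The smallest had its midpoint 5454.5 bp past the start of Pcdhac2 in NSC, with 1028 bp and a fold of 3.61 in NSC and 456 bp and a fold of 2.47 in BTSC. Peaks spanned 4.30% of the Pcdha cluster in NSC (11113 bp) and 4.64% in BTSC (11994 bp); the shares of all protein-coding gene bodies were 4.37% and 5.03%. Between Pcdha and Pcdhb, 28373 bp past the Pcdha end, both lists had a lone peak, of 1173 bp and a fold of 7.02 for NSC and of 1179 bp and a fold of 11.5 for BTSC.

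The Pcdhb cluster, 256.4 kb with 22 genes, had no H3K27ac peak other than those at gene starts: 6 in NSC and 4 in BTSC, covering 1.81% and 1.41% of it. Pcdhb16, at 37477768, had a peak in both lists, 951 bp (fold 4.80) in NSC and 1023 bp (fold 5.32) in BTSC, as did Pcdhb10, with 885 bp (fold 3.96) and 944 bp (fold 3.34). Pcdhb11, at 37421418, had 488 bp with a fold of 2.90 and a −log10 q of 3.06 in NSC, and 1218 bp with a fold of 9.48 and a −log10 q of 40.5 in BTSC. Its NSC peak was above 23.7% of its list by −log10 q and its BTSC peak above 80.2%. Neighbours Pcdhb4, Pcdhb5 and Pcdhb6 had peaks in the NSC list alone, of 1008, 898 and 416 bp with folds of 3.97, 4.07 and 2.55. The next gene, Pcdhb7, had one in the BTSC list alone (430 bp, fold 2.39, −log10 q 1.55), and Pcdhb1 and Pcdhb22 at the ends of the cluster had none. No Pcdhb gene had a peak within 1 kb of its higher coordinate, where 6 and 4 had one at the lower, the start in this tandem array.

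Of the 18 Pcdhg genes before the C-type genes, 3 had a start peak in NSC, Pcdhga1 (468 bp, fold 3.20), Pcdhgb4 (541 bp, fold 2.49) and Pcdhgb6 (685 bp, fold 5.51), and 0 had one in BTSC. The pseudogene Pcdhgb8, outside the rule, had a start peak in both lists (1213 bp, fold 4.87, in NSC and 1066 bp, fold 3.30, in BTSC). Ahead of the domain at Pcdhgc3, peaks added up to 2907 bp for NSC and to 1066 bp for BTSC, the latter all at Pcdhgb8.

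The start peaks of the variable genes had a common shape. In NSC the 12 peaks were 412 to 1008 bp wide and began between 157 bp before and 63 bp after the annotated start. In BTSC the 9 peaks were 430 to 1218 bp wide and began between 208 bp before and 108 bp after it. They ran on for 437 to 917 bp past the start in NSC and for 434 to 1045 bp in BTSC, so most of each peak lay over the variable exon itself. In NSC 6 of 12 and in BTSC 8 of 9 covered the start base. The median width over all peaks of a list was 1575 bp for NSC and 1578 bp for BTSC.

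**Figure D2:**
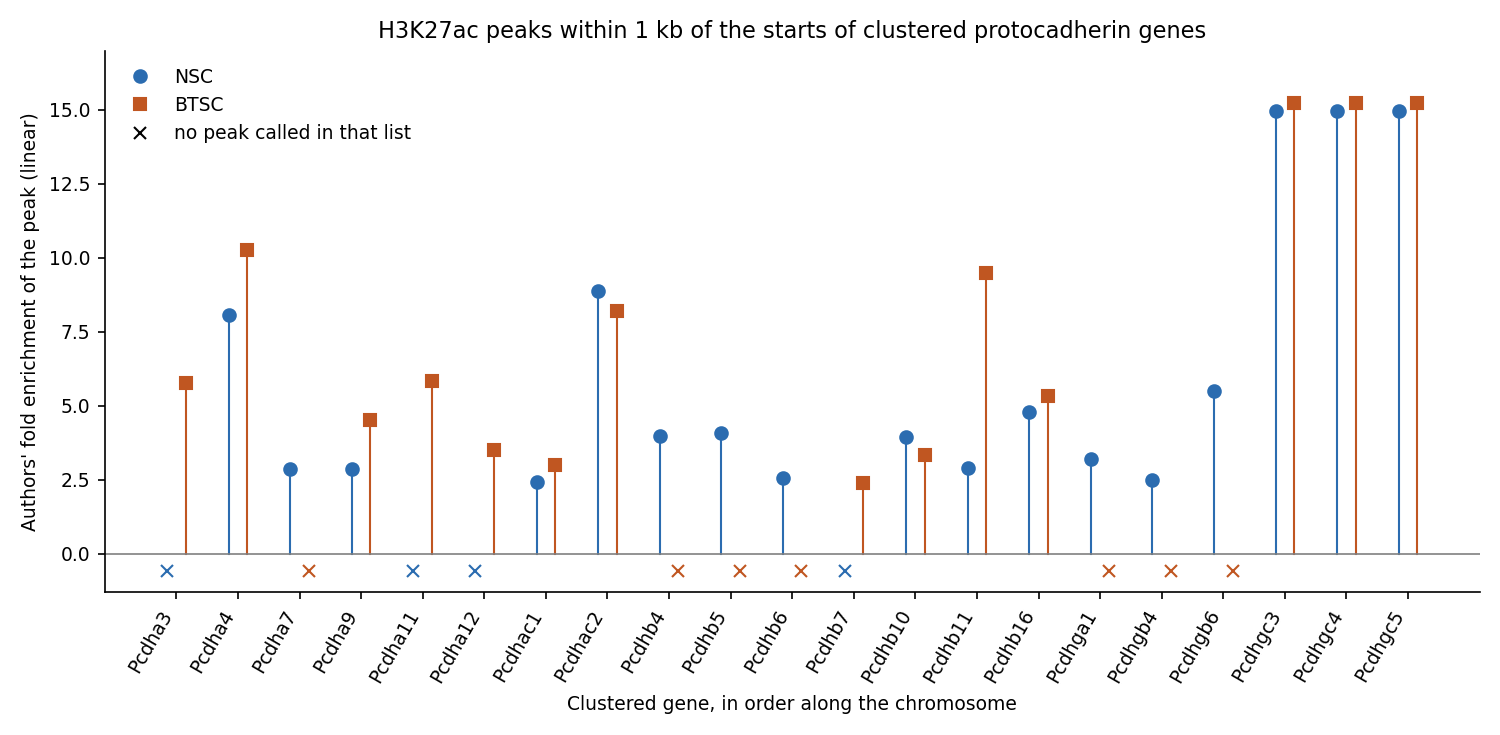
H3K27ac peaks within 1 kb of the start of the 21 clustered genes that had one in either list. The x axis gives the genes in chromosome order, the y axis the authors' linear fold of the peak (circles, NSC; squares, BTSC), and crosses below 0 mark no called peak. The 3 Pcdhgc genes share the value of 1 domain; Pcdha3, Pcdha11, Pcdha12 and Pcdhb7 have a BTSC peak only, and 7 genes an NSC peak only.

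At the end of Pcdhg, a single H3K27ac domain covered Pcdhgc3, Pcdhgc4, Pcdhgc5 and the constant exons in both cultures. In NSC it ran from 37805758 to 37845554, 39797 bp, the 8th widest of the list, and in BTSC from 37805797 to 37845258, 39462 bp, the 20th widest. The BTSC domain lay wholly within the NSC domain, so 39462 bp were shared. It began 652 bp (NSC) and 613 bp (BTSC) before the start of Pcdhgc3 at 37806410 and ended 3681 and 3385 bp past the end of the cluster. Folds were 14.98 and 15.24. The domain made up 92.6% of the acetylated base pairs of Pcdhg in NSC and 97.1% in BTSC, and the cluster as a whole was covered over 21.7% and 20.6%. A further peak with folds of 14.6 (NSC, 5435 bp) and 14.5 (BTSC, 5248 bp) followed at 37847831 (NSC) inside Diaph1, which encodes an actin-nucleating formin.

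TLX had peaks in the Pcdha and Pcdhg clusters in the NSC list, and none in any cluster in the BTSC list. The NSC list held 5 peaks in the clusters: 1 in Pcdha, 0 in Pcdhb and 4 in Pcdhg. They covered 0.174% of Pcdha, 0% of Pcdhb and 1.78% of Pcdhg, against 0.319% of all protein-coding gene bodies. The BTSC list covered only 0.0488% of gene bodies, and whether its 0 in the clusters falls below that rate was not tested. All 5 NSC peaks lay in H3K27ac of NSC, as did 91.6% of the whole list (6830 of 7458). The Pcdha peak, 37178381 to 37178831 (fold 5.15, −log10 q 9.72), was inside the 4662 bp H3K27ac peak. The strongest Pcdhg peak, 37825535 to 37826777, had a fold of 8.99 and a −log10 q of 27.4 and ranked 440 of 7458. Its summit lay 6430 bp past the start of Pcdhgc5, and a neighbour with a fold of 4.86 had its summit 4795 bp past that start. A peak at 37835344 to 37836126 (fold 5.86) lay farther along the domain, and a weak one (fold 3.44, −log10 q 3.38) covered the start of Pcdhgc3. That made Pcdhgc3 the only clustered gene with TLX within 1 kb of its start, 1 of 57. Of genes in the RefSeq promoter table, 14.1% had TLX within 1 kb of any of their starts in NSC and 2.04% in BTSC.

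Past the end of Pcdhg the NSC list had a TLX peak still inside the domain (37842773 to 37843265, fold 4.40) and another in the next H3K27ac peak (37849464 to 37850248, fold 8.41, rank 587). In the BTSC list the nearest TLX peak to the clusters lay 208.1 kb past Pcdhg, at 38050007 to 38050510 with a fold of 6.64, and overlapped an NSC peak. With the NSC list reduced to its 1436 strongest peaks, as many as in BTSC, 1 TLX peak remained in the clusters against 0 in BTSC.

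**Figure D3:**
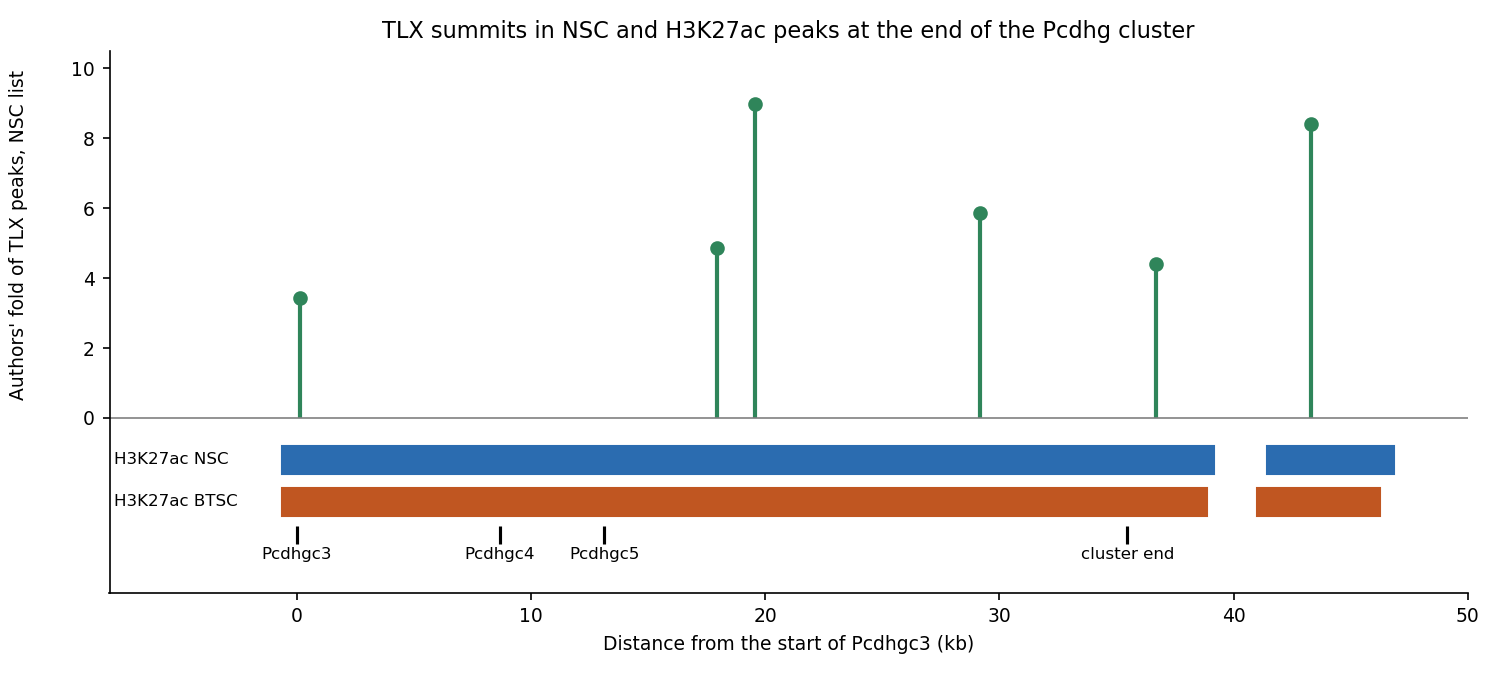
The end of the Pcdhg cluster. The x axis is the distance in kb from the start of Pcdhgc3; stems mark TLX summits of the NSC list with the authors' linear fold on the y axis, and bars below 0 are H3K27ac peaks of NSC and BTSC. The 6 TLX peaks, with folds from 3.44 to 8.99, fall within the H3K27ac bars of NSC.

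Among the 12 single genes, 9 had H3K27ac at a start in both cultures and 3, Pcdh8, Pcdh12 and Pcdh20, in neither. Over the 17491 genes with a start in the RefSeq promoter table, 51.2% had it in both. Pcdh1, Pcdh11x and Pcdh12 were scored at either gene end, which gives more room for a peak than a single start. Within the gene and 10 kb on either side, 11 had H3K27ac in NSC and 10 in BTSC, against 66.0% and 65.2% of all protein-coding genes. These genes run from 4.54 kb (Pcdh8) to 1554 kb (Pcdh15), and long genes hold peaks more often: the shares were 84.8% and 82.8% among genes of at least 50 kb, a size that 7 of the 12 reached, all of them with H3K27ac. Pcdh8 and Pcdh20 had H3K27ac in the NSC window only (2.90% of all genes), and Pcdh12 in the BTSC window only (2.11%). More base pairs were covered in NSC than in BTSC at 9 of the 12, and at 41.6% of all genes covered in either list. The median difference was 1144 bp towards NSC for the single genes. For all genes covered in either list it was −151 bp, towards BTSC.

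**Figure D4:**
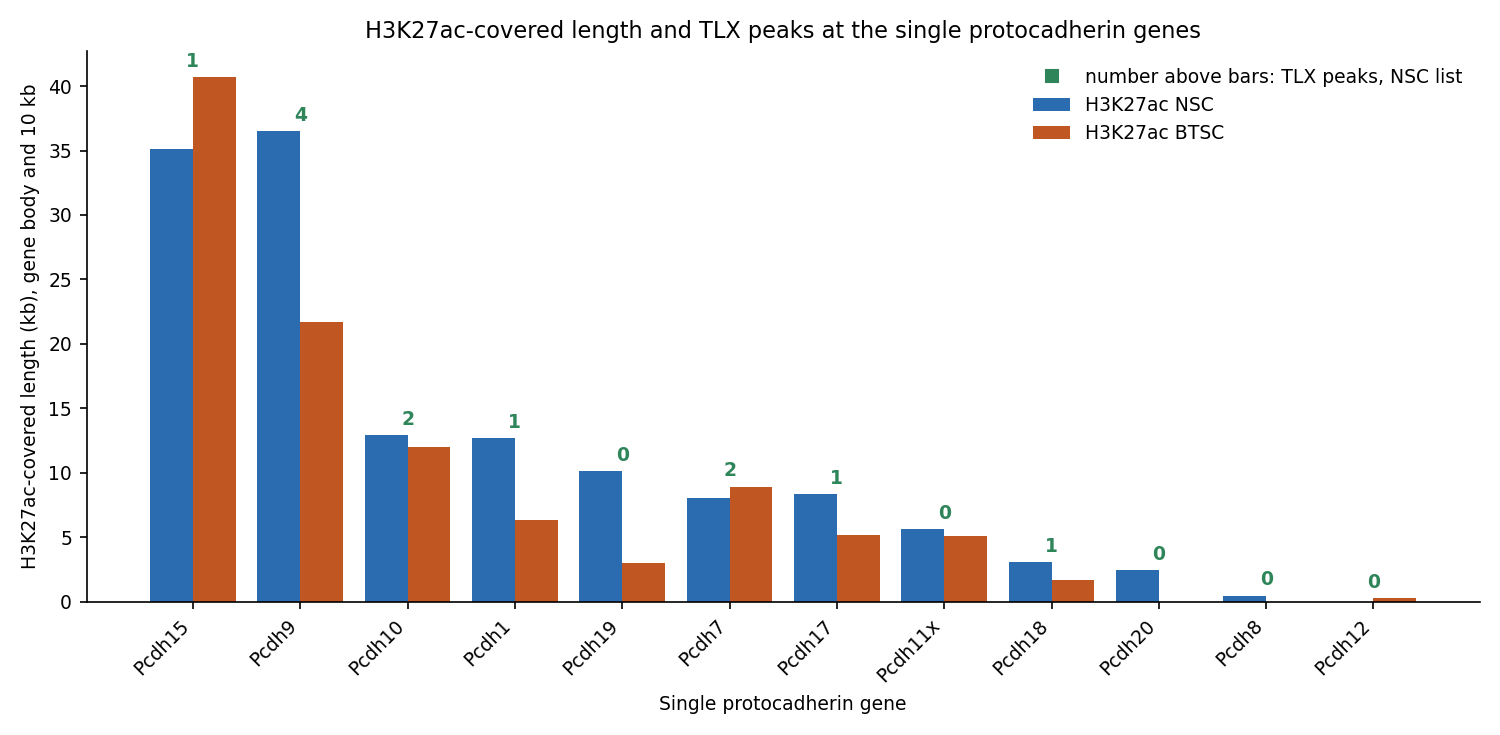
H3K27ac-covered length in kb within each single gene and 10 kb on either side (y axis), by gene (x axis), in NSC and BTSC; the number above each pair of bars is the count of TLX peaks of the NSC list. Pcdh15 and Pcdh9 hold most covered length, Pcdh9, Pcdh1 and Pcdh19 have more in NSC, and 7 genes have TLX peaks.

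Promoters are shown for genes with and without H3K27ac at the start, Pcdh10, Pcdh17 and Pcdh18 against Pcdh8 and Pcdh20. They are RefSeq sequence of build GRCm38.p6, 5′ to 3′ in the direction of transcription, up to the base before the outermost start of the gene, with each CG dinucleotide in capitals. The RefSeq promoter table held 9 of the 12 single genes.
Pcdh10 (chr3:45378148-45378397, plus strand): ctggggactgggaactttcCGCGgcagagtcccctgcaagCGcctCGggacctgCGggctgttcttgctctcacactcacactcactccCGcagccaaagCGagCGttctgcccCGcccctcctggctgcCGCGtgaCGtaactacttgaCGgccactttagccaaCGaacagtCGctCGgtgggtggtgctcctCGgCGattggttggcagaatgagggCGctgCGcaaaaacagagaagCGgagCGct
Pcdh17 (chr14:84443313-84443562, plus strand): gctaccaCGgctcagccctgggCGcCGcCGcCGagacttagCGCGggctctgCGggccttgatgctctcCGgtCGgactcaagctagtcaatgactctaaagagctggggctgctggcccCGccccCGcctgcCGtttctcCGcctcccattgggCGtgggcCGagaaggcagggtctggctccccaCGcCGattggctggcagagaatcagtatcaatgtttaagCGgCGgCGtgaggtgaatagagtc
Pcdh18 (chr3:49757384-49757566, minus strand): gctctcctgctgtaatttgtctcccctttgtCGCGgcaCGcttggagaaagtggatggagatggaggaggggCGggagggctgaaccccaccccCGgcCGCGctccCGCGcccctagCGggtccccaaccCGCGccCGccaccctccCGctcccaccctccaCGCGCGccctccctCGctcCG
Pcdh8 (chr14:79771313-79771562, minus strand): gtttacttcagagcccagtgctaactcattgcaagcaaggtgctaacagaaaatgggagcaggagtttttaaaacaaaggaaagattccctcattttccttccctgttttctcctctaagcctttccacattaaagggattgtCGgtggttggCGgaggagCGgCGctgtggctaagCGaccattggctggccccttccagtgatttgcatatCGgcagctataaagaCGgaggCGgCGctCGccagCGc
Pcdh20 (chr14:88471397-88471646, minus strand): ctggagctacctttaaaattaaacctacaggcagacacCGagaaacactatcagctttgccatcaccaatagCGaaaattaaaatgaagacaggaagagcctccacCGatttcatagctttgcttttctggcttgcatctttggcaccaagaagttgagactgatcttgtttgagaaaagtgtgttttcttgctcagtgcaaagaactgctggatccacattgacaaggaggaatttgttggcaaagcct

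All bases shown for Pcdh10, Pcdh17 and Pcdh18 were covered by H3K27ac in both cultures and none of those for Pcdh8 and Pcdh20. The 3 acetylated stretches held 22, 21 and 19 CG dinucleotides in 250, 250 and 183 bases, those of Pcdh8 and Pcdh20 held 11 and 3 in 250. In the 300 bases from 250 before to 50 after the start, the 7 promoters of the table with H3K27ac held 8 to 26 CG dinucleotides, against a median of 13 over 21262 promoters of protein-coding genes. The 3 printed ones, Pcdh17, Pcdh10 and Pcdh18, held the most of these 7, with 26, 24 and 23. Pcdh8, with 14 there, lay inside that range, and Pcdh20, with 4, below it. Pcdh15, with 8, and Pcdh7, with 11, had H3K27ac at the start but fewer CG dinucleotides than Pcdh8, whereas Pcdh9 and Pcdh19 had more. The TLX peak before Pcdh10 covered the leading 96 of its bases, and that of Pcdh18 covered all 183. AAGTCA, the element that TLX binds, and AGGTCA, shared by many nuclear receptors, were each absent on both strands from all 9 promoters of 300 bases; 14.996% and 16.7% of 17491 protein-coding genes had them. CGCT, the core of a conserved box before many clustered variable exons, occurred in all 9 and in 70.9% of genes.

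Pcdh7, Pcdh9, Pcdh11x and Pcdh1 belong to the delta-1 protocadherins, which have a longer extracellular part. Pcdh7 (chromosome 5, 57716145 to 58133236) had the strongest start peak of the single genes in both lists, 6217 bp with a fold of 25.3 in NSC and 6332 bp with a fold of 20.2 in BTSC. Its RefSeq start was 57718081, inside the gene. By −log10 q the peak was above 98.8% and 96.8% of its list. Both lists also had 2 small peaks inside the gene, and covered lengths were 8073 and 8920 bp.

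Pcdh9 (chromosome 14, 93013700 to 93892834) had 16 H3K27ac peaks in NSC over 36497 bp and 11 in BTSC over 21690 bp, nearly all inside the gene. Each of the 11 overlapped an NSC peak. The start peak had 4083 bp and a fold of 11.4 in NSC and 2382 bp and a fold of 7.01 in BTSC. Inside the gene, the peak at 93540598 to 93546572 had 5975 bp and a fold of 11.6 in NSC and 5044 bp and a fold of 11.8 in BTSC. That at 93700312 to 93702785 had 2474 bp and a fold of 13.2 in NSC and 1491 bp and a fold of 3.97 in BTSC, and that at 93413368 to 93418139 had 4772 bp and a fold of 11.8 in NSC and 2892 bp and a fold of 5.49 in BTSC.

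Pcdh11x (chromosome X, 120290238 to 120910622) had a lone peak at its lower end, 5612 bp (fold 8.11) in NSC and 5111 bp (fold 6.06) in BTSC. Pcdh1 (chromosome 18, 38185914 to 38212048) had H3K27ac at both gene ends in NSC, 3830 bp at the lower (fold 7.32) and 6543 bp at the upper (fold 13.8). In BTSC only the upper end had a peak at the end itself (5888 bp, fold 9.98). Its covered length was 12657 bp in NSC and 6328 bp in BTSC.

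Pcdh8, Pcdh10, Pcdh17, Pcdh18 and Pcdh19 are delta-2 protocadherins, which can bind the WAVE complex that drives actin branching. Pcdh10 (chromosome 3, 45378398 to 45434579), an adhesion protein of growing axons, had 1 wide peak over its start in either list, 12935 bp (fold 16.3) and 12003 bp (fold 13.7). Pcdh17 (chromosome 14, 84443563 to 84537565), known from synapses of the basal ganglia, had start peaks of 5401 bp (fold 16.1) in NSC and 4785 bp (fold 11.4) in BTSC, and 2 peaks inside the gene in NSC alone. Pcdh18 (chromosome 3, 49743291 to 49757383) had 2099 bp (fold 11.1, above 80.9% of its list by −log10 q) in NSC and 1690 bp (fold 5.48, above 57.0%) in BTSC.

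Pcdh19 (chromosome X, 133582860 to 133689044), mutated in an epilepsy with intellectual disability, differed most in covered length by ratio among genes with a start peak: 10113 bp in NSC and 3028 bp in BTSC. Its start peak had 5289 bp and a fold of 7.74 in NSC, above 70.2% of the list, and 3028 bp and a fold of 3.50 in BTSC, above 36.1%. The other 3 NSC peaks of the gene had no BTSC counterpart. Pcdh8 (chromosome 14, 79766772 to 79771312), the paraxial protocadherin, had a single weak NSC peak of 466 bp with its midpoint at −2804 bp from the start (fold 2.89).

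Pcdh15, Pcdh20 and Pcdh12 stand outside these groups. Pcdh15 (chromosome 10, 73096277 to 74649831), part of the tip link of hair cells, was the longest member and had 11 peaks over 35158 bp in NSC and 13 over 40709 bp in BTSC. Its start in the RefSeq table, 73821867, lies inside the gene; the peak there was 8094 bp wide (fold 17.998) in NSC and 8300 bp (fold 15.002) in BTSC. A wider domain with its midpoint 295496 bp past that start in NSC measured 16004 bp (fold 8.94) and 14564 bp (fold 11.7). Pcdh20 (chromosome 14, 88464743 to 88471396) had only a weak NSC peak of 2418 bp at the far end of the gene (fold 3.04).

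Pcdh12 (chromosome 18, 38267092 to 38284401), an endothelial protocadherin, had no H3K27ac inside the gene in either culture. It counted for BTSC because a peak of 8198 bp ended 257 bp inside its 10 kb margin. In NSC the same stretch was called as 2 peaks, the nearer ending 27 bp short of the margin.

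**Figure D5:**
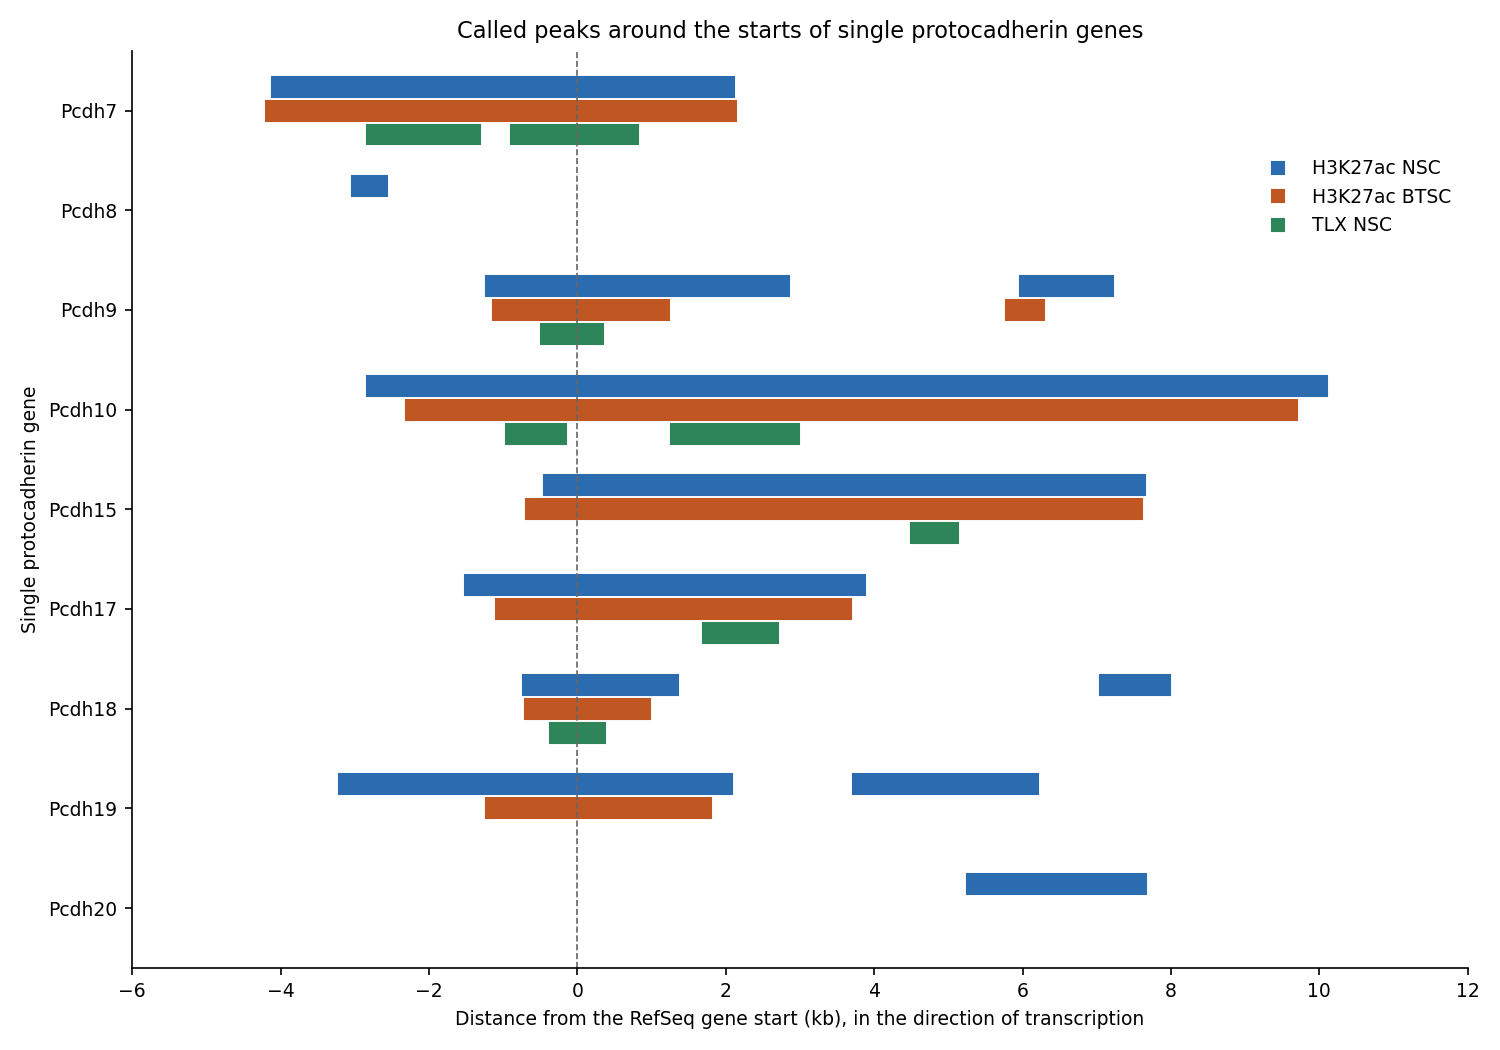
Called peaks around the RefSeq starts of the 9 single genes with a known strand. The x axis is the distance in kb from the start in the direction of transcription (peaks clipped at the plot edges), and bars are H3K27ac peaks of NSC and BTSC and TLX peaks of NSC. H3K27ac covers the start of 7 genes in both cultures, Pcdh8 and Pcdh20 have none there, and TLX covers the start of Pcdh7, Pcdh9 and Pcdh18.

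TLX had peaks at 7 of the 12 single genes in NSC and at 0 in BTSC, against 24.8% and 5.12% of all protein-coding genes; among genes of at least 50 kb the shares were 43.6% and 10.7%, and 5 of the 7 single genes of that length had TLX in NSC. All 12 NSC peaks lay in H3K27ac of NSC, near the 91.6% of the whole list. Within 1 kb of a start, TLX lay at 5 of the 12 genes in NSC: Pcdh1 (scored at either gene end), Pcdh7, Pcdh9, Pcdh10 and Pcdh18. Over the 17491 genes with a start in the RefSeq promoter table, 14.1% had TLX there in NSC. At Pcdh7 a peak of 1706 bp (fold 6.12, −log10 q 13.4) covered the RefSeq start and a weaker one (fold 2.82, −log10 q 3.08) covered the lower end of the gene. At Pcdh18 the summit was at −54 bp from the start (fold 4.59), and at Pcdh9 at −280 bp (fold 4.21).

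Pcdh10 had a TLX peak on either side of its start, with summits at −773 bp (fold 4.21) and at 1625 bp past it (fold 3.40). Summits lay past the start at Pcdh17, by 1859 bp (fold 4.78), and at Pcdh15, by 4710 bp (fold 6.19). At Pcdh1 the summit was 675 bp outside the upper gene end (fold 4.78). The strongest TLX site of any protocadherin gene was inside Pcdh9, at 93416501 to 93417189, with a fold of 10.3, a −log10 q of 34.7 and rank 264 in the NSC list. It lay in the H3K27ac peak at 93413368. Pcdh9 held 2 further sites in its body (folds 5.16 and 5.35). Among the 1436 strongest NSC peaks, 1 single gene, Pcdh9, had TLX. The nearest BTSC TLX peak was 100.3 kb from Pcdh12 and 135.4 kb from Pcdh1, and 387.2 kb or more from every other single gene.

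Genes known to act with protocadherins were read the same way. Of 12 regulators of promoter choice in the clusters, 10 had H3K27ac at a start in both, among them Ctcf and the cohesin genes Smc1a, Smc3 and Stag1. Within the gene and 10 kb around it, the measure used for TLX in these lists, TLX lay at 6 in NSC and at 1 in BTSC, Nipbl, which loads cohesin. Of 12 partners of the cytoplasmic domains, 9 had H3K27ac in both, and TLX lay at 8 and 2, with the GTPase gene Rac1 and the WAVE subunit gene Abi2 in both lists. Of 19 classical cadherins, 9 had H3K27ac in both, Cdh2 (N-cadherin) among them, and TLX lay at 5 and 1, Cdh20. Of 10 other large cadherins, 5 had H3K27ac at a start in NSC and 6 in BTSC. Celsr1, a planar polarity gene scored at either gene end, had it in the BTSC list only. Which of its ends held the peak was not resolved. TLX lay at 4 of these cadherins in NSC and at 2 in BTSC, Fat1 and Fat3. None of these counts has a test. Of genes in the RefSeq promoter table, 53.4% in NSC and 52.9% in BTSC had H3K27ac at a start. Listed genes outside that table were scored at either gene end, which gives more room for a peak. TLX lay at 24.8% and 5.12% of all genes, but at 43.6% and 10.7% of genes of at least 50 kb. The lists were not matched for gene length.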

How the data were processed

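Peak lists of 4 libraries were used, 1 per group: TLX (TY1 antibody) and H3K27ac in NSC and in BTSC. The tools named in the submitters' processing notes are Bowtie, ChIPseeker and bcl2fastq 2.17.1.14, and the build is mm10. For the peak caller, its settings and any read filter: not given in the sources used here. Each deposited peak has a linear fold (ratio of enrichment), −log10 p- and q-values and a score, which in the deposited files is 10 times the −log10 q-value as a whole number in nearly all lines. The distance of a TLX summit from the peak start is also deposited by the authors. Folds and q are the authors' and describe peaks within a list.

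Overlap meant at least 1 bp. Genes came from the RefSeq table of GRCm38.p6. It has no strand, so starts came from the RefSeq promoter table (250 bases before to 50 after, any start of a gene counted). The promoter table has no gene of chromosome 18. The lower coordinate was used for the tandem clustered genes, and either end for Pcdh1, Pcdh11x and Pcdh12. Marker genes and genes of the other lists that were absent from the promoter table were also scored at either end. Clusters ran from their lowest to their highest gene coordinate. Members, gene lists and the rule for named genes (all single genes; in clusters the C-type genes, the outer genes, those with TLX at the start or with H3K27ac at the start in 1 list, and the leading peaks) were chosen with earlier results of these data known. Scripts used Python 3.11.15, pandas 2.3.3 and SciPy 1.17.1; overlap code was tested on simulated data. The depth is unknown.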

Additional observations from a re-analysis of the deposited data

How the results depend on the processing

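The 15 counts and lengths were recomputed under 59 alternatives, and 46 of these left a count within 1.5 times, or a length within the 95% binomial interval, of its value. That interval treats base pairs as independent though they come in a few peaks, so it is too narrow. A change from 37143 to 36077 bp in Pcdhg of BTSC fell outside it, so the 46 does not measure counts and lengths alike. With the TLX list of NSC reduced to as many peaks as in BTSC, single genes with TLX in NSC went from 7 to 1 and TLX peaks in the clusters from 5 to 1. Requiring a −log10 q of at least 5 moved clustered starts with H3K27ac in NSC from 17 to 10, and requiring a peak over the start base moved them to 11. Under the same q, covered lengths in NSC and BTSC were 9553 and 10652 bp in Pcdha, 3742 and 3185 bp in Pcdhb, and 38014 and 36077 bp in Pcdhg. With 10 kb added on either side, Pcdhg had 46747 and 44987 bp. An alternative chosen after seeing the data, a −log10 q of at least 5 in 1 list and no peak in the other, left 6 of the 11 variable genes acetylated in 1 list only, 3 in NSC and 3 in BTSC. No paired analysis was possible because each group has 1 library. Depth is unknown, which limits every statement on a missing peak, above all for the short BTSC list of TLX.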
